A study of Homo sapiens with 9 samples.

Results

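The 10 genes described here build the nuclear lamina or process its lamins, and they were taken by name from the 61544 genes listed in the count data: LMNA, LMNB1 and LMNB2 (the lamins), ZMPSTE24 and ICMT (enzymes that mature them), and LBR, TMPO, EMD, SUN1 and SUN2 (proteins of the inner nuclear membrane that bind the lamina or chromatin). Their RNA was measured in HMC3 cells, an immortalized human microglial line of WT genotype, in 9 libraries, 3 per group. Cells of the SLO group were exposed for 6 days to SBI-0206965 at 10 μM, which inhibits the autophagy kinase ULK1, O-151 at 1 μM, which inhibits the DNA glycosylase OGG1, and Lopinavir at 1 μM, which blocks the maturation of lamin A. The SLO ½ group received 5, 0.5 and 0.5 μM of these compounds, and the VEH group received only DMSO, the solvent that all 3 groups shared. The comparisons ask how each dose of the cocktail changed lamina transcripts and whether the larger dose went beyond the smaller. The 3 compounds were always given together, so no change can be assigned to 1 of them.

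The nuclear lamina is a mesh of lamin filaments under the inner nuclear membrane that supports the nucleus and tethers silent chromatin. B-type lamins stay farnesylated and attached to the membrane, while lamin A is made as prelamin A, which is farnesylated and carboxymethylated at its end and then cut by ZMPSTE24, so that mature lamin A and the shorter lamin C carry no lipid. Lopinavir, an HIV protease inhibitor, is known to inhibit ZMPSTE24, and loss of lamin B1 is widely used as a marker of senescent cells.

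On GRCh38, LMNA lies at chr1:156082573-156140081 (plus strand), LMNB1 at chr5:126776623-126837020 (plus), LMNB2 at chr19:2427638-2456959 (minus), ZMPSTE24 at chr1:40258041-40294180 (plus) and ICMT at chr1:6221193-6235972 (minus). LBR lies at chr1:225401502-225428925 (minus), TMPO at chr12:98515579-98550351 (plus), EMD at chrX:154379273-154381574 (plus), SUN1 at chr7:816615-896435 (plus) and SUN2 at chr22:38733290-38794143 (minus). All 10 are protein-coding.

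The last 18 codons and the stop codon of the B-type lamin reading frames are shown because they hold the site that is farnesylated, and both genes fell at each dose. They are the sense strand of GENCODE v44 transcripts on GRCh38, and capitals mark the CaaX box, 4 codons of which the first encodes the farnesylated cysteine.
LMNB1: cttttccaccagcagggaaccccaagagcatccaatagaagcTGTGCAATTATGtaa
LMNB2: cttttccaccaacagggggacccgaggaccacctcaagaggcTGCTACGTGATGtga
The boxes of LMNB1 (chr5:126836250-126836261, plus strand) and LMNB2 (chr19:2430914-2430925, minus strand) lie in the last of 11 and of 12 exons, and the reading frames have 586 and 620 codons. Counts were made per gene, so lamin A and lamin C share 1 value, as do the LAP2 isoforms encoded by TMPO, and neither farnesylation nor cleavage was measured.

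Reads on genes numbered 14834295 to 19674841 per library, and all 10 genes passed the filter on low counts, as did 14727 genes in all. Levels are given as CPM, read counts per unit of sequencing depth, with depth adjusted by the TMM factors of edgeR (0.968 to 1.035), and a ± beside a level is the SD of 3 libraries, while a ± beside a log2 fold change is its standard error. Changes are log2 fold changes with their standard error from edgeR's quasi-likelihood test, with p-values adjusted over the 14727 genes after Benjamini and Hochberg and a gene called where this fell below 0.05. Sample labels do not say whether replicates came from separate cultures, so p-values measure the spread between these samples, which may be technical. In bulk RNA, fewer cells expressing a gene and less RNA per cell cannot be told apart. The microglial identity of the line was not visible in its defining markers, since 10 of 11 were under 1 TPM, a unit scaled for gene length and library size, in every library, P2RY12 and C1QA were at 0 in all 9, and TREM2 alone exceeded 1 TPM. The summed microglial markers came to 1.46 to 2.52 TPM (VEH), 4.11 to 6.31 TPM (SLO ½) and 4.80 to 5.08 TPM (SLO), against 1229 to 1468, 1420 to 1444 and 1767 to 1855 TPM for 6 fibroblast or mural cell markers. The collagen gene COL1A1 alone supplied 1135 to 1753 TPM of that sum, while COL3A1 and LUM had at most 4 counts in any library and were at 0 in VEH. TREM2 had at most 20 counts in any library. Marker sums in VEH and SLO were 3.63 to 4.68 and 8.02 to 8.57 TPM for 4 astrocyte markers. They were 3.17 to 3.67 and 5.03 to 5.54 for 4 neuron markers, and 0.73 to 0.79 and 0.65 to 1.17 for 4 oligodendrocyte markers.

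In SLO, LMNB1, LMNB2, TMPO and LBR fell, SUN1, SUN2 and ICMT rose, and LMNA, ZMPSTE24 and EMD did not pass the test. Thus 3 of the 10 genes were higher than in VEH, where 32.9% of all tested genes were higher, and 4 were lower, where 32.1% of all tested genes were lower. In SLO ½, the same 4 genes fell and LMNA, ZMPSTE24 and SUN2 rose, so that 3 were higher, against 26.7% of all tested genes, and 4 were lower, against 25.3%. The CPM of treated and VEH libraries did not overlap for 7 of the 10 genes in SLO (66.7% of all tested genes) and 8 in SLO ½ (58.3%). The share of the genes called was therefore close to the background in SLO, and both comparisons use the same VEH libraries. Across the 10 genes the median log2 fold change was -0.0018 in SLO and -0.04 in SLO ½, beside 0.014 and 0.015 over all tested genes. With library size alone as the scale, 5 of the genes were higher in SLO, and LMNA and ZMPSTE24 were the genes added.

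**Figure D1:**
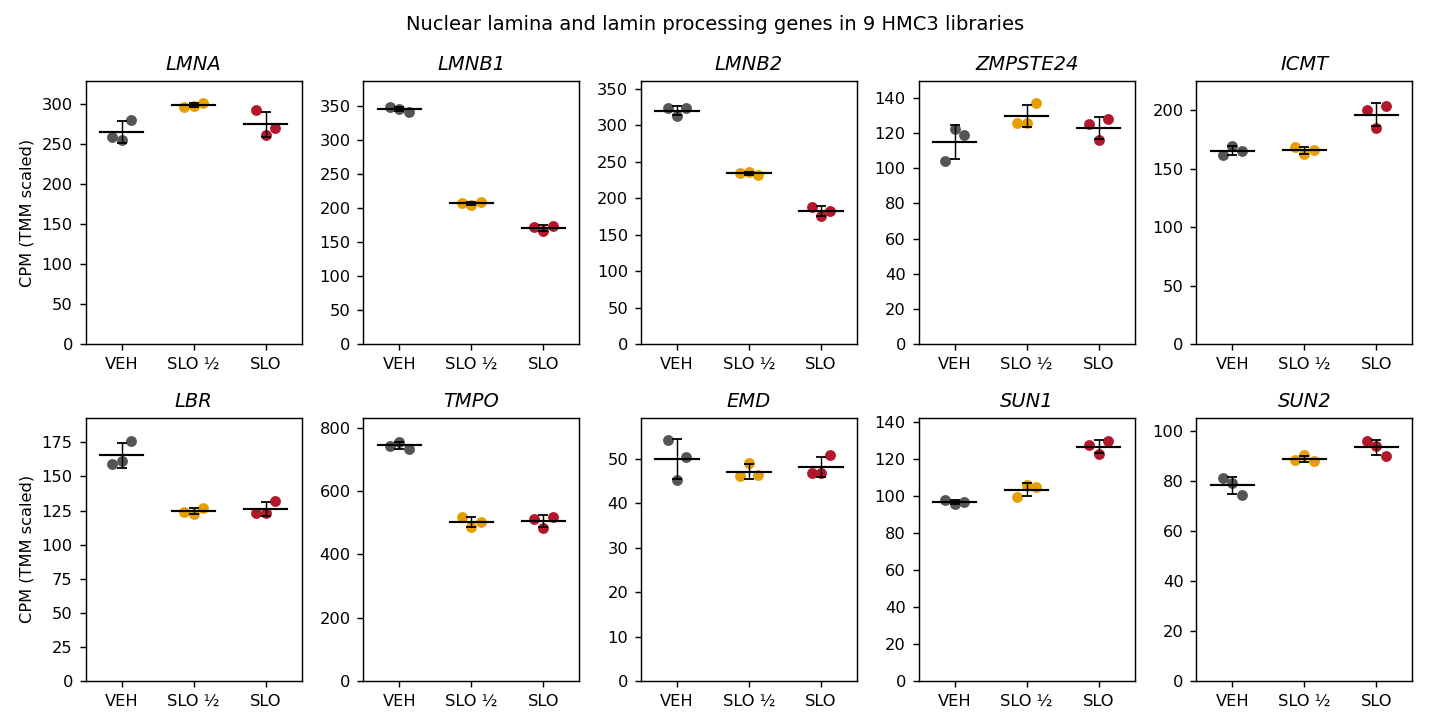
Level of each gene in the 9 libraries (y axis, CPM after TMM scaling, from 0) by treatment group (x axis). Points are libraries, the long bar is the group mean and the whiskers are the SD (n = 3). LMNB1 averaged 346 CPM with VEH, 207 with SLO ½ and 171 with SLO, TMPO stood at 502 in SLO ½ and 505 in SLO, and LMNA ranged from 255 to 301 over all libraries.

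Among the lamins, both B-type transcripts fell at each dose, and LMNA did not pass the test in SLO. LMNB1, which encodes lamin B1, gave 349, 346 and 342 CPM in the VEH libraries, 208, 204 and 209 CPM with SLO ½ and 172, 166 and 174 CPM with SLO. The 3 groups did not overlap, and the highest treated library stood well under the lowest VEH library. The log2 fold change of LMNB1 was -0.74 ± 0.04 (SE) in SLO ½ (edgeR adjusted p = 9.53e-16) and -1.02 ± 0.04 in SLO (adjusted p = 3.16e-19), a loss of 50.6% of its CPM at the full dose. Of all tested genes, 2.09% had a lower log2 fold change than LMNB1 in SLO. From SLO ½ to SLO it fell by a further 0.28 on the log2 scale (adjusted p = 1.21e-06).

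LMNB2, which encodes lamin B2, gave 324, 313 and 323 CPM in the VEH libraries, 234, 236 and 232 CPM with SLO ½ and 189, 176 and 183 CPM with SLO. These groups were also separate from each other. Its log2 fold change was -0.45 ± 0.04 in SLO ½ (edgeR adjusted p = 9.11e-11) and -0.81 ± 0.04 in SLO (adjusted p = 9.02e-17). The step from SLO ½ to SLO was -0.36 ± 0.04 (adjusted p = 1.96e-08). On the log2 scale, SLO ½ gave 55.5% of the change in SLO for LMNB2 and 72.7% for LMNB1. All of the called changes of LMNB1 and LMNB2 held under each of the 19 alternative analyses.

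LMNA, which encodes prelamin A and lamin C, gave 258, 255 and 280.1 CPM in the VEH libraries, 296, 297 and 301 CPM with SLO ½ and 292, 261 and 270.2 CPM with SLO. The SLO ½ libraries were the highest, above all VEH and all SLO libraries, while SLO overlapped with VEH. LMNA rose by 0.17 ± 0.04 in SLO ½ (edgeR adjusted p = 0.00155), a call lost only with limma on unfiltered TPM among 19 alternatives (0.13, adjusted p = 0.124). In SLO its log2 fold change was 0.05 ± 0.04 with a 95% interval of -0.039 to 0.14 (adjusted p = 0.316). With library size alone as the scale, that value became 0.13 and passed the test (adjusted p = 0.0123). LMNA was lower in SLO than in SLO ½, with a log2 difference of -0.12 ± 0.04 (adjusted p = 0.0272), a call kept in 9 of 19 alternatives and lost without SLO ½ replicate 1, 2 or 3 (adjusted p from 0.0535 to 0.0917) or SLO replicate 2 (0.155) or 3 (0.0926). The 3 SLO ½ libraries were close to each other, at 298 ± 2.69 CPM, beside 264 ± 13.7 in VEH and 274 ± 15.9 in SLO (SD, n = 3).

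Summed TPM of the 3 lamin genes was 880 ± 9.49 with VEH, 626 ± 12.0 with SLO ½ and 536 ± 19.1 with SLO (SD, n = 3), with no overlap between groups. By the gene lengths behind the deposited TPM, LMNA made up 17.4% ± 0.774 of this sum with VEH, 26.7% ± 0.164 with SLO ½ and 29.4% ± 0.805 with SLO. LMNB1 made up 50.9% ± 0.845 with VEH, 41.6% ± 0.351 with SLO ½ and 41.1% ± 0.861 with SLO, and the share of LMNB2 went from 31.7% ± 0.306 to 31.7% ± 0.415 and 29.5% ± 0.0614. The makeup of lamin transcripts thus moved towards LMNA while the B-type transcripts fell.

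Within a library, the ratio of LMNA to LMNB1 needs no scaling between libraries. The TPM ratio was 0.330, 0.329 and 0.365 with VEH, 0.637, 0.649 and 0.642 with SLO ½, and 0.756, 0.700 and 0.691 in SLO. Every library of SLO was above every library of SLO ½, which in turn were above VEH. The mean log2 ratio was 1.07 higher in SLO than in VEH, 0.92 higher in SLO ½ than in VEH, and 0.15 higher in SLO than in SLO ½. The exact two-sided permutation test gave p = 0.1 for each of the 3 differences, which is the smallest p that 3 against 3 libraries allow.

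The level of this ratio, but not its change, depends on gene length. The lengths behind the deposited TPM match the merged exons of all GENCODE v44 transcripts, which give LMNA 8141 bases and LMNB1 3633, while their MANE Select transcripts (1 reference transcript per gene) have 3178 and 2890 bases. With MANE Select lengths, a choice made after the data were seen, the ratio was 0.695 ± 0.0423 with VEH, 1.31 ± 0.0124 with SLO ½ and 1.46 ± 0.0713 with SLO (SD, n = 3). On that scale LMNB1 exceeded LMNA in VEH and LMNA exceeded LMNB1 in both treated groups. On the TPM scale LMNB1 was above LMNA in all 9 libraries. The shares of the summed lamin TPM depend on the same choice of length. Merged exons make LMNA 2.56 times as long as its MANE Select transcript, LMNB1 1.26 times and LMNB2 1.16 times.

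**Figure D2:**
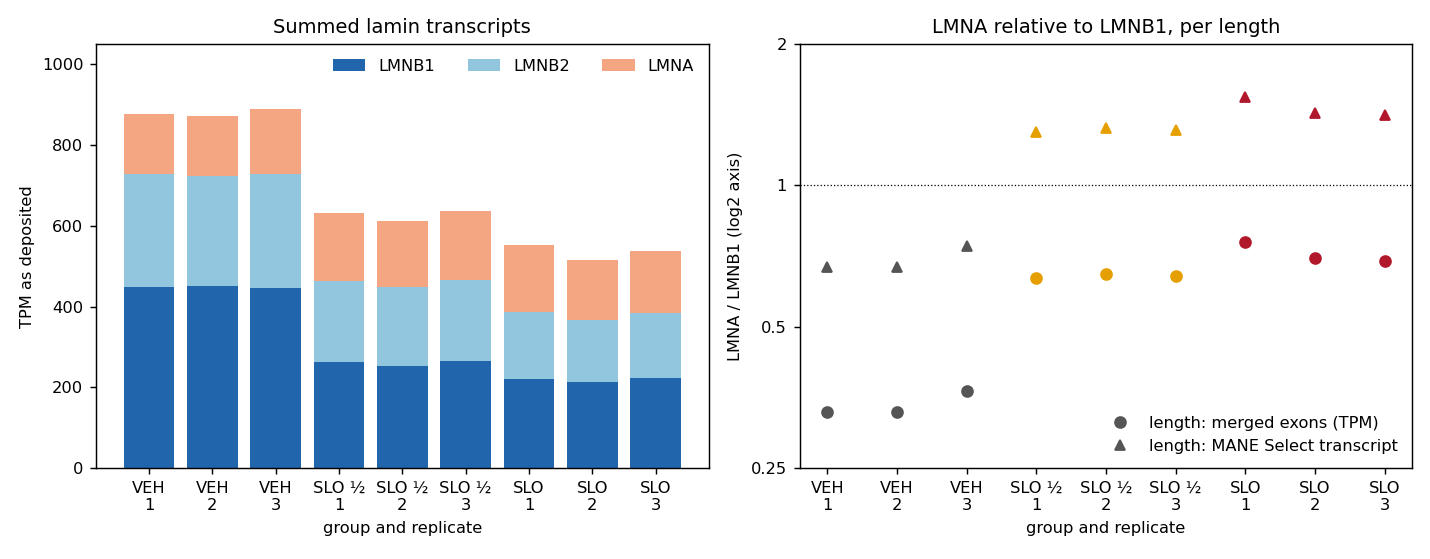
Left, TPM of LMNB1, LMNB2 and LMNA stacked for each library (y axis, TPM as deposited). Right, ratio of LMNA to LMNB1 in each library on a log2 axis, with circles for TPM and triangles for MANE Select lengths, the dotted line marking equal levels. The stacks shrink from 880 TPM in VEH to 536 in SLO on average, and the triangles cross 1 between VEH (0.695) and SLO ½ (1.31).

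Among the enzymes that mature lamins, ZMPSTE24 rose in SLO ½ and did not pass the test in SLO. This zinc metalloprotease of the endoplasmic reticulum and inner nuclear membrane cuts prelamin A. ZMPSTE24 gave 104, 122 and 119 CPM in the VEH libraries, 126, 126 and 137 CPM with SLO ½ and 125, 116 and 128 CPM with SLO. All SLO ½ libraries were above all VEH libraries, while SLO overlapped with VEH, whose replicate 1 was the lowest of the 9 libraries. Its log2 fold change was 0.17 ± 0.05 in SLO ½ (edgeR adjusted p = 0.00743) and 0.09 ± 0.05 in SLO (adjusted p = 0.122). The call in SLO ½ was lost without VEH replicate 1 (0.10, adjusted p = 0.0998), without SLO ½ replicate 3 (0.13, adjusted p = 0.0774) and in the TPM analyses with limma (adjusted p from 0.124 to 0.306). In SLO the test was passed without VEH replicate 2 (0.13, adjusted p = 0.0420), without SLO replicate 2 (0.13, adjusted p = 0.0430) and with library size alone as the scale (0.17, adjusted p = 0.00580).

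ICMT, the methyltransferase that carboxymethylates the farnesylated cysteine, rose in SLO. It gave 162, 169 and 165 CPM in the VEH libraries, 169, 163 and 166 CPM with SLO ½ and 200.1, 185 and 204 CPM with SLO. Every SLO library was above every library of the other groups, and SLO ½ overlapped with VEH. ICMT rose by 0.25 ± 0.04 in SLO against VEH (edgeR adjusted p = 6.98e-06) and by 0.24 ± 0.04 against SLO ½ (adjusted p = 2.37e-05). In SLO ½ against VEH its value was 0.0046 with a 95% interval of -0.081 to 0.090 (adjusted p = 0.935).

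Counts in this and the other related lists stand beside all tested genes, of which 32.9% rose and 32.1% fell in SLO. In SLO ½ these shares were 26.7% and 25.3%. Of 5 further genes of prelamin A prenylation and proteolysis, 1 rose and 1 fell in SLO, and 1 rose in SLO ½, with medians of 0.09 and -0.0045. FNTB, the catalytic subunit of farnesyltransferase, was lowly expressed and fell from 6.53 ± 0.917 CPM in VEH to 4.24 ± 0.477 in SLO (log2 fold change -0.62, adjusted p = 5.90e-04). PGGT1B, the matching subunit of the enzyme that attaches a geranylgeranyl group, rose in SLO (log2 fold change 0.18, adjusted p = 0.00507), a call lost without SLO replicate 3 and in 1 further alternative. RCE1, the protease that removes the last residues of the CaaX box, rose in SLO ½ (log2 fold change 0.30, adjusted p = 0.0185), a call lost in 5 of 19 alternatives, among them without VEH replicate 3 and without SLO ½ replicate 2, and had a value of 0.23 in SLO (adjusted p = 0.0666). FNTA, the subunit shared by both transferases, had a value of 0.09 in SLO (adjusted p = 0.147), and NARF, which binds prelamin A, one of -0.01 (adjusted p = 0.864). Of 8 genes that make the farnesyl and geranylgeranyl donors, 3 rose and 3 fell in SLO, with a median of 0.08, and 4 fell in SLO ½, with a median of -0.11. FDPS, which makes farnesyl diphosphate, fell at both doses (-0.39 in SLO ½, -0.43 in SLO, adjusted p = 1.33e-09). GGPS1, which extends it to the geranylgeranyl donor, rose in SLO (log2 fold change 0.62, adjusted p = 3.34e-06). In SLO ½ it was the single gene of the list called higher (log2 fold change 0.25, adjusted p = 0.0423), and that call was lost in 11 of 19 alternatives, 5 of them with 1 library left out.

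In the inner nuclear membrane, LBR and TMPO fell at both doses, and no step between the doses was detected. TMPO encodes the LAP2 proteins, which bind lamins and chromatin. TMPO gave 743, 756 and 734 CPM in the VEH libraries, 518, 487 and 501 CPM with SLO ½ and 513, 483 and 518 CPM with SLO. Both treated groups lay below VEH and overlapped with each other. Its log2 fold change was -0.57 ± 0.04 in SLO ½ (edgeR adjusted p = 1.41e-12) and -0.56 ± 0.04 in SLO (adjusted p = 5.53e-13). The difference between the doses was 0.0067 with a 95% interval of -0.076 to 0.089 (adjusted p = 0.909), an interval that leaves out a step as large as that of LMNB1.

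LBR, the lamin B receptor, binds B-type lamins and heterochromatin and also carries a sterol reductase domain. It gave 159, 162 and 176 CPM in the VEH libraries, 124, 123 and 127 CPM with SLO ½ and 123, 123 and 132 CPM with SLO. As with TMPO, the treated groups were below VEH and overlapped with each other. LBR changed by -0.41 ± 0.04 in SLO ½ (edgeR adjusted p = 5.60e-09) and by -0.40 ± 0.04 in SLO (adjusted p = 6.32e-09). The step between doses was 0.02 with a 95% interval of -0.073 to 0.11 (adjusted p = 0.771). Of 9 other genes of the sterol steps around LBR, 3 rose and 5 fell in SLO, with a median of -0.14, and 2 fell in SLO ½, with a median of -0.03. Over the 19 alternatives, 2 to 5 genes of this list were called lower in SLO. TM7SF2, the reductase that carries out the same sterol step as LBR, rose in SLO from 6.95 ± 0.412 to 11.4 ± 1.24 CPM (log2 fold change 0.72, adjusted p = 2.38e-06), and in SLO ½ had a value of 0.24 (adjusted p = 0.0961). MSMO1 (C4 demethylation) fell at both doses (-0.53 in SLO ½, -0.62 in SLO, adjusted p = 2.34e-11), as did DHCR7, a late reductase of cholesterol synthesis (-0.29 and -0.28, adjusted p = 4.75e-06).

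EMD, which encodes the LEM domain protein emerin, gave 54.2, 45.3 and 50.4 CPM in the VEH libraries, 46.1, 49.1 and 46.3 CPM with SLO ½ and 46.9, 46.9 and 50.8 CPM with SLO. All 3 groups overlapped, and the VEH libraries alone covered the whole range. Its log2 fold change was -0.08 ± 0.06 in SLO ½ (edgeR adjusted p = 0.24) and -0.05 ± 0.06 in SLO, with a 95% interval of -0.18 to 0.067 (adjusted p = 0.429). The value in SLO turned to 0.02 with library size alone as the scale, and SLO ½ passed the test without VEH replicate 2 (-0.15, adjusted p = 0.0391). Of 11 other genes listed for the inner nuclear membrane, not all of them restricted to it, 3 rose and 4 fell in SLO, with a median of -0.011. In SLO ½, 2 of them rose and 4 fell, with a median of -0.09. Over the 19 alternatives, 1 to 2 genes of this list were called higher and 2 to 6 lower in SLO ½. NRM (nurim) fell at both doses (-0.52 and -0.76, adjusted p = 1.29e-09). LRRC59, which helps import at the nuclear envelope, fell in SLO from 362 ± 15.8 to 269 ± 7.86 CPM (log2 fold change -0.43, adjusted p = 2.25e-10) but had a value of 0.03 in SLO ½ (adjusted p = 0.53), and the difference between the doses passed the test (log2 fold change -0.46, adjusted p = 2.91e-10). TMEM38A, a cation channel, rose from a low level of 2.32 ± 0.368 CPM in VEH to 5.31 ± 0.115 in SLO (log2 fold change 1.19, adjusted p = 1.83e-07).

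SUN1 and SUN2, which span the inner membrane and join the lamina to nesprins of the outer membrane, both rose in SLO. SUN1 gave 97.7, 95.5 and 96.5 CPM in the VEH libraries, 99.4, 106 and 105 CPM with SLO ½ and 128, 123 and 129.5 CPM with SLO. The 3 groups did not overlap, and SLO stood furthest apart. SUN1 rose by 0.39 ± 0.04 in SLO (edgeR adjusted p = 3.47e-09) and by 0.29 ± 0.04 from SLO ½ to SLO (adjusted p = 1.93e-06). In SLO ½ its value of 0.10 ± 0.04 missed the threshold (adjusted p = 0.0534) and passed it in 4 of 19 alternatives, among them without SLO ½ replicate 1 (0.13, adjusted p = 0.0345) and with library size alone as the scale (0.15, adjusted p = 0.00372).

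SUN2 gave 81.0, 78.9 and 74.4 CPM in the VEH libraries, 88.2, 90.2 and 87.8 CPM with SLO ½ and 95.9, 93.8 and 90.0 CPM with SLO. Both treated groups were above VEH and overlapped with each other. SUN2 rose by 0.19 ± 0.05 in SLO ½ (edgeR adjusted p = 0.00106) and by 0.26 ± 0.05 in SLO (adjusted p = 1.37e-05). The step between the doses was 0.07 ± 0.04 (adjusted p = 0.208). Of 7 tested nesprins and torsins (8 listed), 2 rose and 3 fell in SLO, with a median of 0.0092, and 3 rose and 3 fell in SLO ½, with a median of -0.011. TOR1A and TOR1B, torsin ATPases of the nuclear envelope lumen, rose at both doses, TOR1B by 0.21 in SLO ½ and 0.57 in SLO (adjusted p = 6.58e-12) and TOR1A by 0.30 and 0.37 (adjusted p = 2.51e-07). SYNE2, the giant nesprin-2, fell by 0.82 on the log2 scale in SLO ½ and by 0.46 in SLO (adjusted p = 4.88e-04), with VEH libraries that ranged widely, at 212, 332 and 238 CPM. Its call in SLO was lost with DESeq2 and with limma on log2(TPM + 1) without a filter, and over the 19 alternatives 0 to 3 genes of this list were called lower in SLO.

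**Figure D3:**
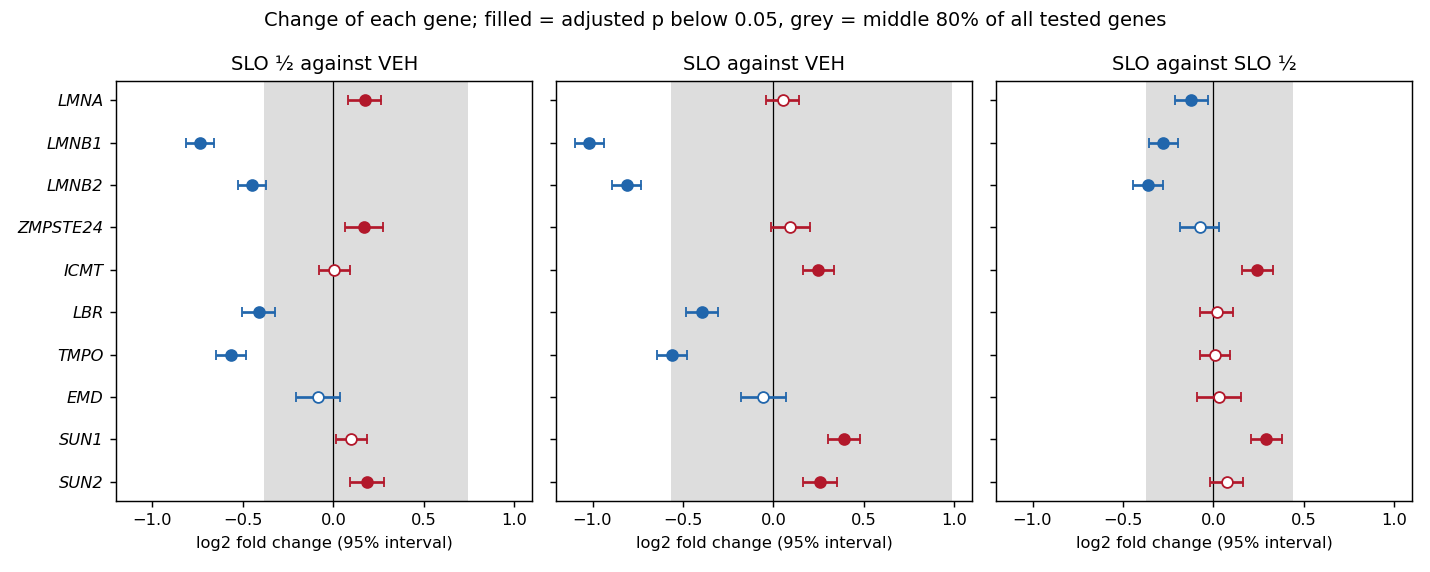
Log2 fold change of each gene (x axis, with its 95% interval) in SLO ½ against VEH, SLO against VEH and SLO against SLO ½. Blue is lower and red higher, filled points have an adjusted p below 0.05, and the grey band holds the middle 80% of all tested genes. LMNB1 (-0.74 and -1.02) and LMNB2 (-0.45 and -0.81) lie below the band at both doses against VEH. TMPO (-0.57) and LBR (-0.41) lie below it in SLO ½ but not in SLO, and no gene lies above it.

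Compared directly, SLO and SLO ½ differed for 5 of the 10 genes. SUN1 and ICMT were higher in SLO, against 20.8% of all tested genes, and LMNB2, LMNB1 and LMNA were lower, against 20.3%. The call of LMNA was kept in only 9 of 19 alternatives. The CPM of the 2 doses did not overlap for 5 genes, against 51.0% of all tested genes. The genes therefore followed several courses. LMNB1 and LMNB2 fell at SLO ½ and again at SLO, TMPO and LBR fell at SLO ½ with no further step detected, ICMT rose at the full dose, and LMNA was highest in SLO ½.

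Levels of different genes were compared as CPM per kilobase of the MANE Select transcript. In VEH, TMPO was the highest at 180.0 ± 2.73, followed by LMNB1 (120 ± 1.18), LMNA (83.2 ± 4.31), LMNB2 (69.05 ± 1.37), LBR (44.2 ± 2.43), EMD (39.0 ± 3.50), ZMPSTE24 (38.7 ± 3.25), ICMT (34.5 ± 0.791), SUN1 (24.1 ± 0.274) and SUN2 (19.7 ± 0.851; SD, n = 3). Neighbours in this order did not overlap except EMD with ZMPSTE24 and ZMPSTE24 with ICMT. In SLO, TMPO remained the highest at 122 ± 4.63, followed by LMNA (86.3 ± 5.00) and then LMNB1 (59.1 ± 1.498), and LMNB2 (39.4 ± 1.40) came to lie among ZMPSTE24 (41.3 ± 2.09), ICMT (40.9 ± 2.04) and EMD (37.6 ± 1.76), each overlapping with its neighbour. LBR (33.7 ± 1.32) and SUN1 (31.6 ± 0.856) followed, with SUN2 the lowest (23.6 ± 0.757). The order by deposited TPM differs, with LMNB1 (448 ± 2.63) above TMPO (412 ± 6.94) in VEH and SUN1 (38.3 ± 0.259) the lowest, because merged exons make SUN1 2.96 times, LMNA 2.56 times and TMPO 2.05 times as long as the MANE Select transcript.

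Further lists held chromatin tethers of the lamina, kinases and phosphatases that act on it with partner proteins, and the nuclear pore. They are given beside the 32.1% (SLO) and 25.3% (SLO ½) of all tested genes that were lower. Of 9 chromatin tethers, 2 rose and 5 fell in SLO (median -0.17), and 8 fell in SLO ½ (median -0.15). Over the 19 alternatives, 1 to 3 tethers were called higher in SLO and 5 to 8 lower in SLO ½. CBX3 (HP1 gamma) fell in SLO (log2 fold change -0.55, adjusted p = 7.23e-13), as did BANF1, which bridges DNA and LEM domain proteins (log2 fold change -0.51, adjusted p = 6.04e-11), while CBX5 (HP1 alpha), a partner of LBR, rose (log2 fold change 0.39, adjusted p = 1.37e-08). Of 11 tested kinases and phosphatases that act on the lamina (12 listed), 7 fell at each dose (median -0.23 in SLO, -0.14 in SLO ½). CCNB1, the mitotic cyclin, fell from 519.8 ± 12.4 to 302 ± 12.4 CPM in SLO (log2 fold change -0.78, adjusted p = 3.82e-16), PRKCA, a protein kinase C that phosphorylates lamins, changed by -0.87 in SLO ½ and -0.72 in SLO (adjusted p = 6.79e-15), and PLK1 fell in SLO (log2 fold change -0.56, adjusted p = 1.07e-12). Of 28 nuclear pore genes, 25 fell in SLO (median -0.44) and 23 in SLO ½ (median -0.24). NUP42 alone rose in SLO (log2 fold change 0.21, adjusted p = 0.0491), a call lost in 14 of 19 alternatives, 7 of them with 1 library left out. Among them, NDC1, which anchors the pore in the membrane, fell from 151 ± 0.824 to 83.0 ± 1.90 CPM (log2 fold change -0.86, adjusted p = 3.74e-16), and NUP107 and NUP205 of the pore scaffold changed by -0.58 and -0.59 in SLO (adjusted p = 1.31e-13 and 3.12e-13).

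Markers of cycling cells moved in the same direction as the B-type lamins. Of 22 such genes, 20 fell in SLO (median -0.43), and 16 fell in SLO ½ (median -0.24). PCNA, the sliding clamp of replication, was called higher in SLO (log2 fold change 0.10, adjusted p = 0.0279) but not in 8 of 19 alternatives, 4 of them with 1 library left out. MCM6 and MCM5, subunits of the replicative helicase, changed by -1.02 and -0.72 in SLO (adjusted p = 2.21e-18 and 3.54e-15), and MKI67, the Ki-67 gene, fell from 1472 ± 129 to 792 ± 42.4 CPM (log2 fold change -0.89, adjusted p = 6.38e-15). In SLO, 21 of the 22 markers had a higher log2 fold change than LMNB1, 20 than LMNB2, 16 than TMPO and 10 than LBR, so LMNB1 and LMNB2 fell more than nearly all of these markers while LBR lay in their middle. In SLO ½ these numbers were 21, 19, 20 and 17. The part of the cycling state in the fall of the 4 genes was not tested.

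**Figure D4:**
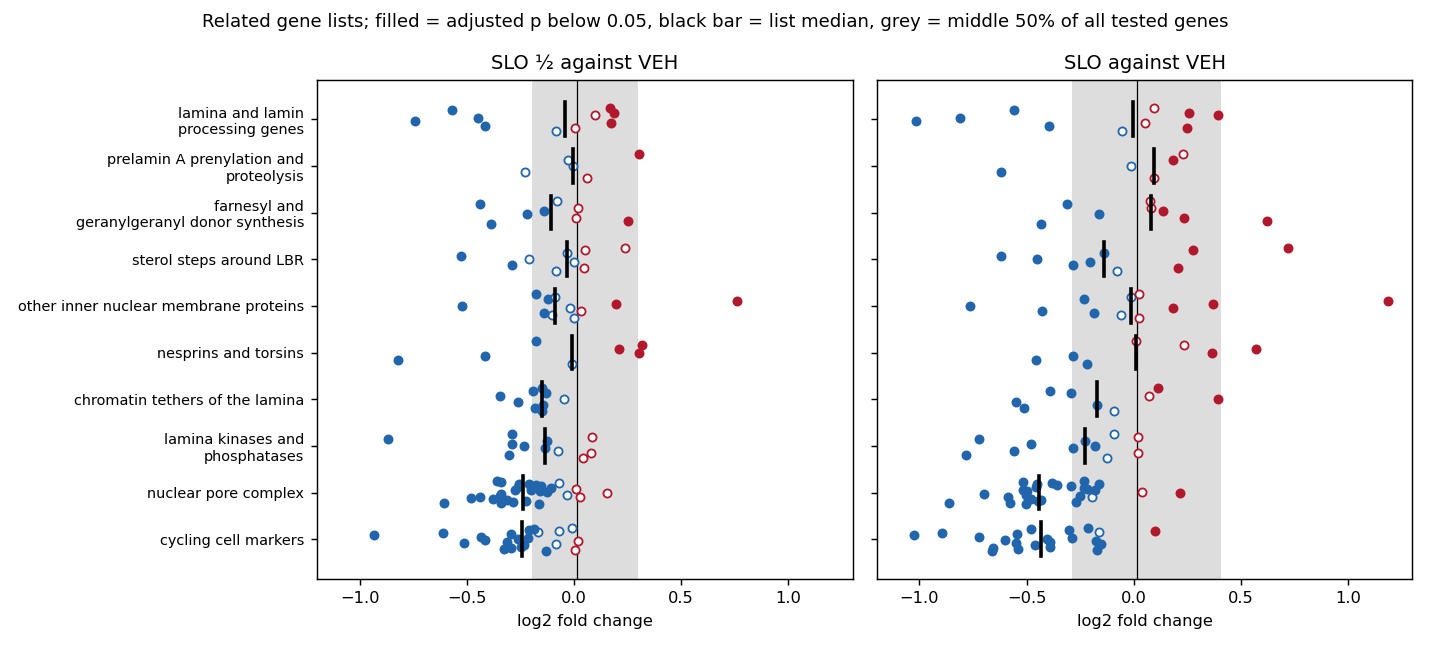
Log2 fold change (x axis) of the 10 lamina genes and of each gene in 9 related lists (y axis) in SLO ½ and SLO against VEH. Each point is a gene, filled where its adjusted p is below 0.05, black bars are list medians, and the grey band holds the middle 50% of all tested genes around their median (thin line). The nuclear pore (median -0.44 in SLO) and cycling lists (-0.43) lie left of the band, and the lamina genes spread from -1.02 to 0.39.

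Across the 9 libraries, which form 3 treatment groups and share their scaling, the correlation of log2 CPM is given as a description. LMNB1 followed LMNB2 (Pearson r = 0.98) and TMPO (0.96), TMPO followed LBR (0.97), and SUN1 followed ICMT (0.92), while LMNA had its highest value with ZMPSTE24 (0.70). Of the 8068 genes averaging a log2 CPM of 4 or more, those most like LMNB1 were ANP32E (0.998), POC1B (0.997) and MTMR4 (0.997), and 873 genes exceeded 0.95. ANP32E, a chaperone of the histone variant H2A.Z, averaged 293 CPM with VEH, 165 with SLO ½ and 126 with SLO. For LMNA the most alike were RIOK1 (0.974), TOMM34 (0.973) and NAPG (0.961), and only 6 genes exceeded 0.95. Far more genes thus followed the course of LMNB1 than that of LMNA at this limit, and LMNA also varied less between groups.

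Promoters are shown for genes that moved in 1 direction at both doses, to set those that fell beside SUN2, which rose. RefSeq promoters (GRCh38.p14) were given for 9 of the 10 genes, without SUN1, and the 150 bases before the start were searched on both strands for the CCAAT box (CCAAT), the CHR element of cell cycle genes (TTTGAA) and E2F sites (TTTCCCGC or TTTGGCGC). The windows of LMNB1 and LBR lie wholly or largely in annotated exons and are not printed. Capitals mark the matches, which read ATTGG or TTCAAA where they lie on the other strand.
LMNB2 (chr19:2456960-2457109, minus strand): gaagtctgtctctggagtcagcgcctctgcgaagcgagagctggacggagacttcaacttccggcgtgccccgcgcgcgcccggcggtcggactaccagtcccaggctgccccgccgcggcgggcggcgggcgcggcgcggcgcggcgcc
TMPO (chr12:98515440-98515589, plus strand): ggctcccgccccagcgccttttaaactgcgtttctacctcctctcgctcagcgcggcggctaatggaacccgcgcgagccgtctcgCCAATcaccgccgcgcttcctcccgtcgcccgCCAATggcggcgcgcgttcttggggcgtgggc
SUN2 (chr22:38755999-38756148, minus strand): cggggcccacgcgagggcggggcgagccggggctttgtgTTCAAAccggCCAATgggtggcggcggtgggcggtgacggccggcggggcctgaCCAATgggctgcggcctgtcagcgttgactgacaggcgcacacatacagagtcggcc
A CCAAT box was found in 4 of the 9 windows (LMNB1, EMD, TMPO and SUN2), beside 23.5% of 34943 promoters. Only 7 of the 9 entries start where the MANE Select transcript does. Those of LMNA and LBR start 7995 and 783 bases away, and the window of ZMPSTE24, like that of LMNB1, lies wholly in annotated exons. The CHR letters were found in 1, that of SUN2, beside 7.35% of promoters, and the E2F letters in 0, beside 1.22%. A match is a description of the letters, and absence of one says only that these letters are not in the window.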

How the data were processed

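RNA of HMC3 cells was measured in 9 libraries, 3 each of VEH, SLO ½ and SLO, grouped by the sample labels. The authors selected polyadenylated RNA (KAPA RNA HyperPrep), and the submitters' processing notes name Trimmomatic 0.38, STAR 2.7.1a and GRCh38. The deposited counts are whole reads per gene without normalization, and the deposited TPM are the authors' values scaled for gene length and library size. Counts divided by TPM gave 1 length per gene in all libraries (spread up to 0.0012%, 5451 genes with at least 500 counts), equal within 1% to merged GENCODE v44 exons for 4876 of 4891 genes with the same identifier. Unmapped, multimapping, ambiguous and gene-free reads (18.0% to 20.1%) stayed out of library sizes.

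Counts were tested with edgeR 4.0.16 under R 4.3.3 (filterByExpr, TMM, quasi-likelihood, 3 groups, all 9 libraries, Benjamini-Hochberg adjustment). The pipeline was tested on simulated counts with planted changes, in genes drawn from all levels of expression. It called 32% to 41.7% of planted log2 changes of 0.25 and 68% to 69.4% of those of 0.5. Of planted changes of 1 it called 94% to 96%. Replicates differed by more than counting noise (chi-square per degree of freedom 1.77 to 4.01). Alternatives were DESeq2 1.42.0, its size factors, library size alone, no filter, a minimum of 10 counts per library, a fit to 2 groups at a time, a replicate block, limma 3.58.1 on log2(TPM + 1), log2(TPM + 0.1) or unfiltered TPM, and each library left out. The exact permutation test was used for the LMNA to LMNB1 ratio. Genes named are the 10 studied, in each related list the 3 genes of smallest p for SLO against VEH (every gene of a list of 5), and the 3 most correlated with LMNA and with LMNB1. CDK1, NUP42 and PCNA are named outside this rule. Some items that meet this rule are not reported here. The genes and lists were chosen with earlier results of these data known, and lists were described by counts and medians without a set test.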

Additional observations from a re-analysis of the deposited data

How the results depend on the processing

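Of 300 fold changes of the 10 genes under alternatives that kept all libraries, 279 kept their direction and their side of the threshold, as did 252 of 270 with a library left out, and the others concern LMNA, ZMPSTE24, EMD, ICMT and SUN1 or the small steps of LBR and TMPO between doses. The count of genes higher in SLO went from 3 to 5 with library size alone, which also moved the median of all genes from 0.014 to 0.089, and the count higher in SLO ½ went from 3 to 1 with limma on unfiltered TPM. TMM factors did not overlap between treatments. VEH libraries had 0.973, 0.968 and 0.974, half-dose libraries 1.003, 1.007 and 1.008, and full-dose libraries 1.019, 1.035 and 1.015. The choice of scale was therefore not separate from treatment. Without these factors, the log2 fold change of LMNA at the full dose went from 0.051 to 0.126. Why the factors differed by treatment was not tested, and neither was the cause of the change with limma. Values near 0 changed sign. EMD in SLO became 0.020 with library size alone. ICMT in SLO ½ became -0.00584 with DESeq2 and with its size factors, -0.011 without a filter, and -0.037 with limma on TPM + 1, on TPM + 0.1 and on unfiltered TPM. With a library left out, ICMT in SLO ½ ranged from -0.015 to 0.018, and from SLO ½ to SLO, LBR ranged from -0.014 to 0.036, EMD from -0.0092 to 0.058 and TMPO from -0.016 to 0.038. The LMNA to LMNB1 difference ranged from 1.03 to 1.12 in SLO, 0.889 to 0.965 in SLO ½ and 0.115 to 0.179 between doses. From SLO ½ to SLO, 19 nuclear pore genes and 14 cycling markers fell, with 11 to 20 and 9 to 15 over all alternatives. Deviations of libraries with the same replicate number were weakly correlated (0.0028 to 0.087 over 9 pairs). For the 18 pairs with different numbers the range was -0.062 to 0.037, and 0 pairs of either kind were over 0.1. A small effect shared by replicate number is therefore not excluded. With the replicate block, 7, 7 and 5 genes were called in SLO, in SLO ½ and between doses, and no call changed. Within replicate numbers, the exact paired p of the ratio was 0.25, the smallest 3 pairs allow.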
